A study of Daphnia pulicaria with 8 samples.

Results

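In the water flea Daphnia pulicaria, 5 lipocalin genes were followed across lakes and colour phenotypes: Daplx7pEVm017095, named Prostaglandin-H2 D-isomerase, and Daplx7pEVm016393, Daplx7pEVm016442, Daplx7pEVm018465 and Daplx7pEVm018658, named Apolipoprotein D. They were 5 of the 33069 genes measured, and their 27 isoforms were among 109737. They were picked by identifier because their values in Red and Pale animals were already known to differ, so those values are given as a description, and no p-value is read as support for them. The names are those in the authors' deposited tables. Another 12 genes carried a lipocalin name and are described after the 5.

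RNA came from whole adults, Red or Pale, collected in the lakes Black, Doe, Long and Round. Every lake contributed a Red library and a Pale library, which makes 4 Red and 4 Pale libraries and leaves no lake and phenotype repeated. The labels give no treatment, genotype or exact age, and they describe the animals as preserved by lake, with no number per library. Total RNA was depleted of ribosomal RNA before directional libraries were made. In whole animals, fewer cells of a type and less RNA per cell cannot be told apart. With nothing repeated within a lake, p-values measure only how far the effect of phenotype or lake varied between these libraries, which may be partly technical.

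Lipocalins are small, mostly secreted proteins whose barrel-shaped fold holds a fatty or otherwise poorly soluble molecule. In mammals, Apolipoprotein D carries arachidonic acid, progesterone and related ligands, and its fly relatives, among them Neural Lazarillo, are known for roles in lipid storage and resistance to oxidative stress. The lipocalin-type prostaglandin D synthase of mammals turns prostaglandin H2 into prostaglandin D2 and also carries retinoids. Other lipocalins of crustaceans, the crustacyanins of lobster shell, bind the carotenoid astaxanthin. What the Daphnia genes do is not known from these data.

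Levels are FPKM, the fragments of a transcript scaled to its length in kilobases and to the fragments of the library, so they can be compared between genes. Differences are Red minus Pale on the log2(FPKM + 1) scale, which understates the change of low genes, each with the standard error of a limma model that has lake as a block. Only features averaging 1 FPKM or more across all 8 libraries were fitted, which left 12865 genes and 23583 isoforms. FPKM summed to between 543804 and 582444 per library. The number of reads behind each library is unknown. Depth was estimated from the most common ratio of low values between a library and Black Pale, in genes with a single isoform. This gave Black Red a depth of 1.84 relative to Black Pale and the other 6 libraries between 0.895 and 1.12. The estimate assumes that such values rest on 1 read each. A single uncharacterized gene held 45.2% to 48.1% of the FPKM in Red and 41.0% to 47.1% in Pale libraries. The Red library of Long stood farthest from the rest on the first principal component, at 62.3, where the lowest library, the Red one of Doe, had -34.0.

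All 5 genes had a lower mean in Red than in Pale animals, and 4 of the 5 were lower in Red in each of the 4 lakes, as 14.6% of all tested genes were. Only Daplx7pEVm017095 had every Red library below every Pale library, as 4.45% of tested genes did. The exception among lakes was Daplx7pEVm016393, which was higher in Red in Long. No gene of the 12865 passed a Benjamini-Hochberg adjusted p of 0.05 for Red against Pale in limma (0%), while 1195 genes were lower at an unadjusted p under 0.05 (9.29%) and 372 higher (2.89%). With quantile normalization that split became 676 lower and 800 higher. The median difference over all tested genes was -0.08, and 61.5% lay below 0. Since the 5 genes were chosen on this contrast, their direction carries no weight beyond the description.

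**Figure D1:**
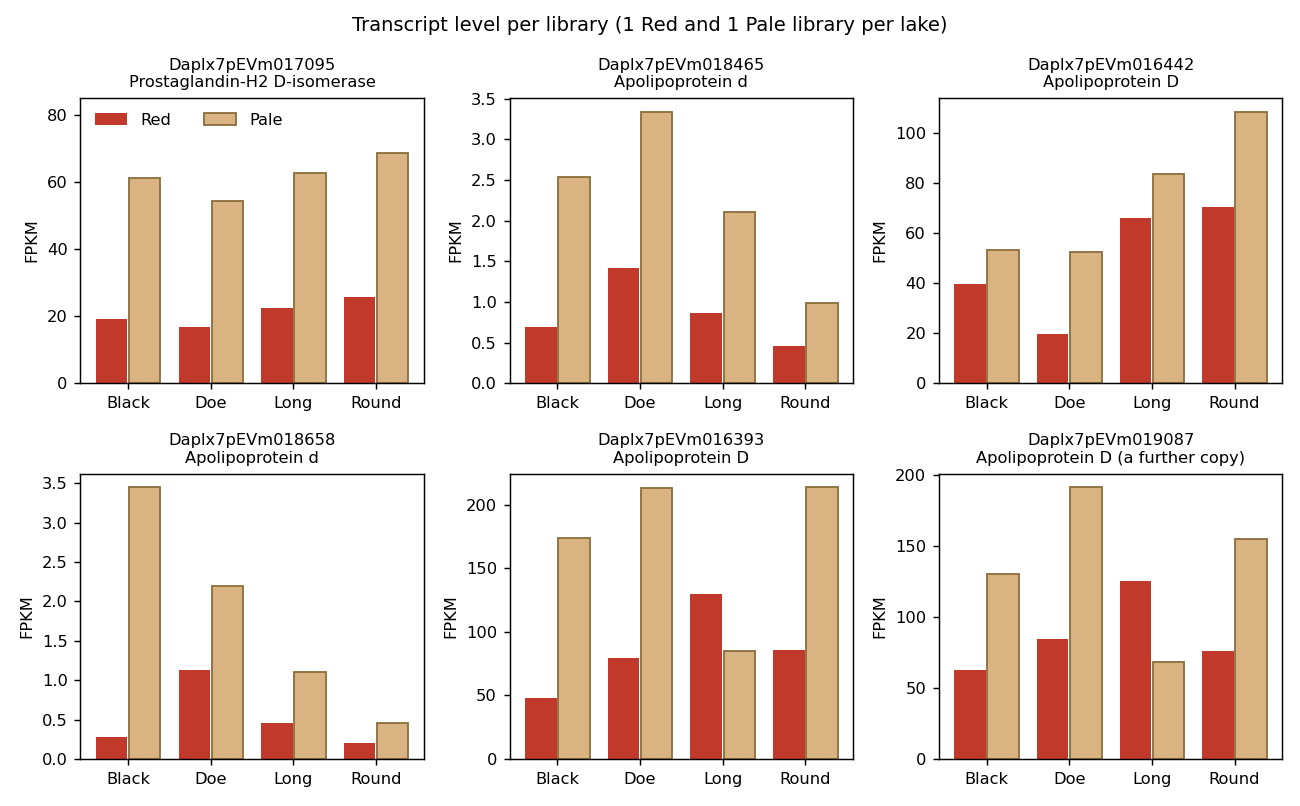
FPKM of the 5 genes and of a further Apolipoprotein D gene, Daplx7pEVm019087, in each library, with a separate linear axis from 0 for each gene and Red bars left of Pale bars within each lake. Daplx7pEVm017095 is lower in Red in each lake, while Daplx7pEVm016393 and Daplx7pEVm019087 are lower in Red in Black, Doe and Round and higher in Red in Long.

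The prostaglandin isomerase gene Daplx7pEVm017095 had 19.04, 16.64, 22.31 and 25.71 FPKM in the Red libraries of Black, Doe, Long and Round, against 61.05, 54.41, 62.60 and 68.60 FPKM in the Pale libraries of the same lakes. The highest Red library lay well under the lowest Pale library, and the lakes ran in the same order in both phenotypes, with Doe lowest and Round highest. Its mean was 20.9 ± 3.95 FPKM in Red and 61.7 ± 5.83 FPKM in Pale animals (SD, n = 4 each). The ratio of the Pale to the Red level lay between 2.67 in Round and 3.27 in Doe, with a geometric mean of 2.98 over the 4 lakes. The log2 difference was -1.53 (SE 0.13), and the 4 lakes ran only from -1.65 to -1.38. Of the 5 genes it varied least between lakes, with a coefficient of variation of 18.9% in Red and 9.46% in Pale libraries. Its mean level was above that of 93.6% of tested genes.

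This gene was made up of 6 isoforms, all of which entered the fit and all of which were lower on average in Red. The largest on average, Daplx7pEVm017095t4, had 7.33, 10.18, 12.27 and 6.38 FPKM in the Red libraries of Black, Doe, Long and Round, against 29.09, 20.79, 25.36 and 17.42 FPKM in the Pale libraries. This isoform had no overlap between phenotypes and carried 34.7% of the fall in the gene's mean. Next came Daplx7pEVm017095t3 with 23.9% of it, at 4.56, 0.74, 0 and 9.28 FPKM in Red, against 8.65, 10.57, 6.74 and 27.48 FPKM in Pale. Its values varied widely within each phenotype and overlapped between them. In Round it stood above Daplx7pEVm017095t4 in both phenotypes. The other 4 isoforms carried between 7.18% and 12.03% each. The groups also did not overlap for Daplx7pEVm017095t1 and Daplx7pEVm017095t5, so that 3 of the 6 isoforms were separated, as 3.48% of all tested isoforms were.

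Of these isoforms, 2 went the other way in 1 lake. Daplx7pEVm017095t6 had 2.94 FPKM in Red and 1.32 FPKM in Pale animals of Doe, and Daplx7pEVm017095t2 had 1.95 FPKM in Red and 0.86 FPKM in Pale animals of Round. Elsewhere both were lower in Red. The share of the gene held by Daplx7pEVm017095t4 was 44.9% ± 16.4 in Red and 37.9% ± 9.30 in Pale libraries (SD, n = 4 each), and the groups overlapped. The lower level in Red was thus spread over the isoforms rather than held by 1 of them. How fragments were divided among isoforms of a gene is not given in the sources used here, and an error in that division would move 1 isoform against another while leaving the gene's sum as it is.

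**Figure D2:**
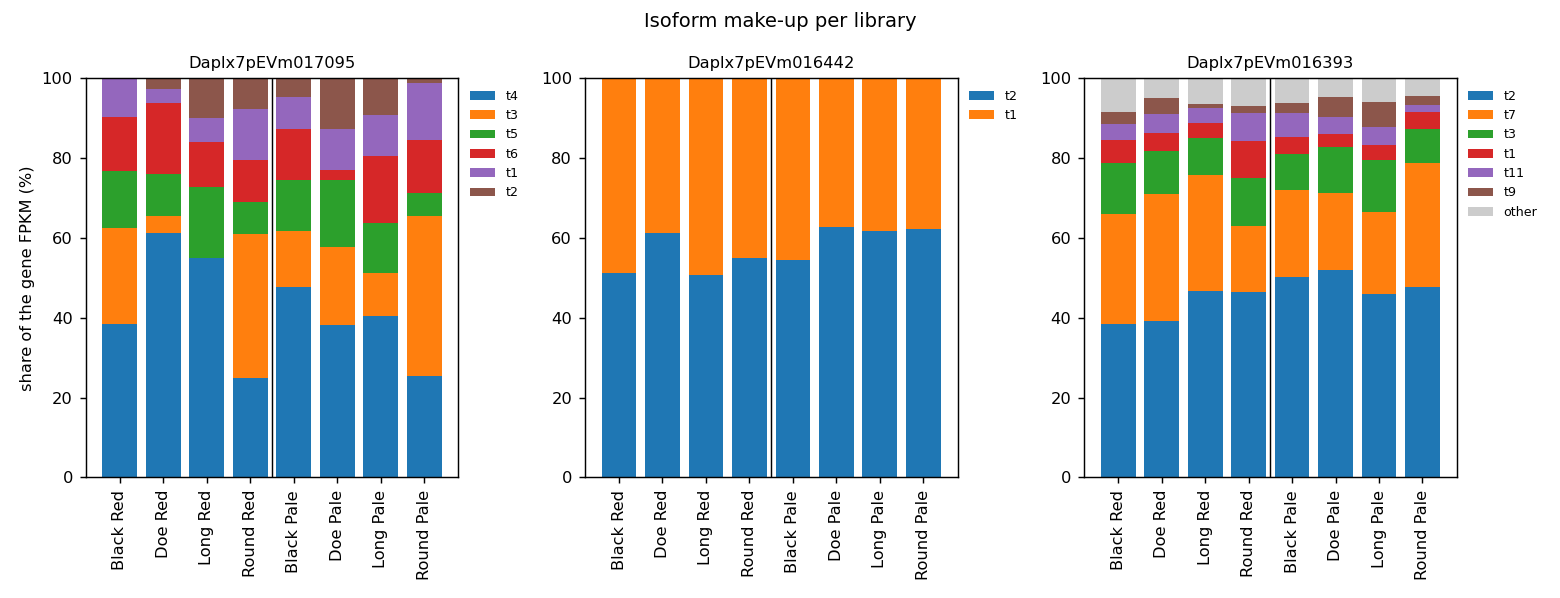
Share of each gene's FPKM held by each of its isoforms, in percent, for the 3 abundant genes, with the 4 Red libraries left of the line and the 4 Pale libraries right of it. The isoforms of highest mean, Daplx7pEVm017095t4, Daplx7pEVm016393t2 and Daplx7pEVm016442t2, hold large shares in both phenotypes. In Round, Daplx7pEVm017095t3 holds a larger share than Daplx7pEVm017095t4.

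The most abundant of the 5, the Apolipoprotein D gene Daplx7pEVm016393, had 48.11, 79.57, 129.99 and 85.44 FPKM in the Red libraries of Black, Doe, Long and Round, against 173.86, 213.13, 84.65 and 213.74 FPKM in the Pale libraries. The Red library of Long was the highest of its phenotype and the Pale library of Long the lowest of its own, so the groups overlapped. The mean was 85.8 ± 33.7 FPKM in Red and 171 ± 60.7 FPKM in Pale animals (SD, n = 4 each). The log2 difference was -0.99 (SE 0.41) over the 4 lakes. By lake it was -1.83 in Black, -1.41 in Doe and -1.31 in Round, but 0.61 in Long. Without Long it was -1.52. Of all tested genes, 8.06% were likewise lower in Red in Black, Doe and Round and higher in Long.

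Daplx7pEVm016393 has 12 isoforms, of which 9 entered the fit and Daplx7pEVm016393t4 was listed at 0 in every library. Daplx7pEVm016393t2 carried 55.1% of the fall in the gene's mean, with 18.50, 31.13, 60.79 and 39.62 FPKM in the Red libraries of Black, Doe, Long and Round, against 87.38, 110.50, 38.81 and 101.87 FPKM in the Pale libraries. It followed the gene, reversed in Long and lower in Red in the other lakes. Daplx7pEVm016393t7 carried 21.2%, with means of 22.7 FPKM in Red and 40.8 FPKM in Pale, and Daplx7pEVm016393t3 carried 9.48%. In Long, 10 of the 12 isoforms were higher in Red, and 6 had the full pattern of the gene, as 7.95% of all tested isoforms did.

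Daplx7pEVm016393t9 did not share the reversal. It had 1.42, 3.18, 1.46 and 1.45 FPKM in the Red libraries of Black, Doe, Long and Round, against 4.25, 10.58, 5.36 and 4.83 FPKM in the Pale libraries. Every Red library lay below every Pale library, as for 3.48% of all tested isoforms. Of the 12 isoforms Daplx7pEVm016393t9 alone was lower in Red in all 4 lakes. Its log2 difference ran from -1.47 in Doe to -1.12 in Black and was -1.37 in Long, with a mean of -1.30 (SE 0.18). Among all tested isoforms, 12.8% were lower in Red in each lake. It is a minor form that held 1.12% to 6.33% of the gene per library and carried 5.12% of the fall in the gene's mean. The division of fragments among isoforms is not given, so the level of so small a part is less certain than that of the gene.

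**Figure D3:**
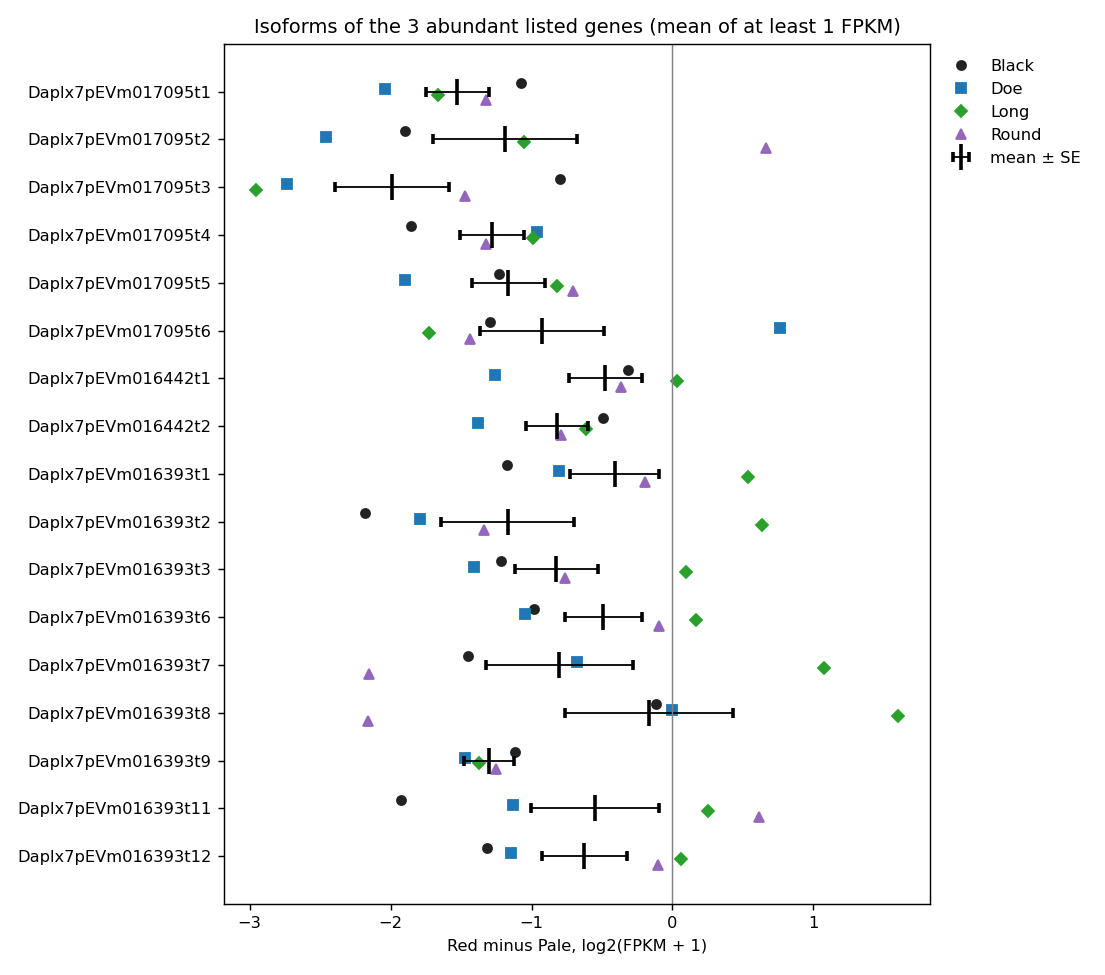
Red minus Pale difference on the log2(FPKM + 1) scale for each tested isoform of the 3 abundant genes, with a marker for each lake and the mean with its standard error (limma). Markers for Long lie above 0 for most isoforms of Daplx7pEVm016393 but at -1.37 for Daplx7pEVm016393t9.

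A further Apolipoprotein D gene, Daplx7pEVm019087, followed Daplx7pEVm016393 closely. It had 62.57, 84.78, 125.48 and 75.94 FPKM in the Red libraries of Black, Doe, Long and Round, against 130.54, 191.50, 68.58 and 154.79 FPKM in the Pale libraries. Long was again the lake where Red was higher, and the Pearson correlation between the pair on the log2(FPKM + 1) scale was 0.95 over the 8 libraries, which share depth and scaling. The ratio of Daplx7pEVm016393 to Daplx7pEVm019087 ran from 0.769 to 1.38 and was lower in the Red than in the Pale library of each lake, Long included. It was 0.769 in Red and 1.33 in Pale animals of Black, 0.939 and 1.11 in Doe, 1.04 and 1.23 in Long, and 1.13 and 1.38 in Round. Fragments that fit both genes could have been split between them, so the level of each is less certain than their sum. That sum was 110.7, 164.4, 255.5 and 161.4 FPKM in Red, against 304.4, 404.6, 153.2 and 368.5 FPKM in Pale libraries of Black, Doe, Long and Round.

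For both genes Red stood above Pale in Long and below it in the other lakes. In a limma model with a separate term for Long, added because of this pattern, the Red minus Pale difference in Long minus that in the other 3 lakes was 2.13 (SE 0.35) for Daplx7pEVm016393 and 1.94 (SE 0.29) for Daplx7pEVm019087. No gene passed this term at a Benjamini-Hochberg adjusted p of 0.05 (0%), these included, while 7.06% of genes had an unadjusted p under 0.05. With 1 Red and 1 Pale library from Long, the values describe those libraries and do not show that the lakes differ. Both libraries of Long enter this difference. The Pale one had 84.65 FPKM of Daplx7pEVm016393, where the other Pale libraries had 173.86 to 213.74 FPKM. The Red one, which stood apart on the first principal component, had 129.99 FPKM, where the other Red libraries had 48.11 to 85.44 FPKM. For Daplx7pEVm019087, too, the Pale library of Long was the lowest Pale and the Red one the highest Red. The part of either library was not tested.

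Daplx7pEVm016442, the other abundant Apolipoprotein D gene, had 39.48, 19.58, 66.09 and 70.26 FPKM in the Red libraries of Black, Doe, Long and Round, against 53.07, 52.37, 83.56 and 108.62 FPKM in the Pale libraries. It was lower in Red in each lake, but the lakes spread more than the phenotypes and the groups overlapped. Its means were 48.9 ± 23.8 FPKM in Red and 74.4 ± 27.1 FPKM in Pale animals (SD, n = 4 each), with a geometric mean ratio of Pale to Red of 1.63. The log2 difference was -0.69 (SE 0.21), from -1.37 in Doe to -0.33 in Long. Without Doe it was -0.46, which is over 1.5 times smaller.

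Its isoforms did not share this equally. Daplx7pEVm016442t2 carried 75.1% of the fall in the mean, with 20.22, 12, 33.44 and 38.59 FPKM in Red, against 28.90, 32.88, 51.61 and 67.65 FPKM in Pale libraries of Black, Doe, Long and Round. Daplx7pEVm016442t1 carried 24.9%, with 19.26, 7.58, 32.65 and 31.67 FPKM in Red, against 24.17, 19.50, 31.94 and 40.97 FPKM in Pale. In Long, then, Daplx7pEVm016442t2 was lower in Red and Daplx7pEVm016442t1 was level. Daplx7pEVm016442t2 held a smaller share of the gene in Red in each lake, 51.2% in Red and 54.5% in Pale animals of Black, 61.3% and 62.8% in Doe, 50.6% and 61.8% in Long, and 54.9% and 62.3% in Round.

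Daplx7pEVm018465 and Daplx7pEVm018658 were Apolipoprotein D genes of low level, with means above those of 13.7% and 4.70% of tested genes. Daplx7pEVm018465 had 0.69, 1.42, 0.86 and 0.46 FPKM in the Red libraries of Black, Doe, Long and Round, against 2.53, 3.34, 2.10 and 0.99 FPKM in the Pale libraries. Daplx7pEVm018658 had 0.28, 1.13, 0.46 and 0.20 FPKM in Red, against 3.45, 2.19, 1.10 and 0.46 FPKM in Pale. Both were lower in Red in every lake, and in both the Pale library of Round lay below the Red library of Doe, so the groups overlapped.

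The means of Daplx7pEVm018465 were 0.858 ± 0.409 FPKM in Red and 2.24 ± 0.979 FPKM in Pale animals, and those of Daplx7pEVm018658 were 0.518 ± 0.423 FPKM in Red and 1.80 ± 1.31 FPKM in Pale animals (SD, n = 4 each). The log2 differences were -0.77 (SE 0.18) and -0.80 (SE 0.31). On this scale they are held down by the pseudocount, and as geometric mean ratios Pale stood at 2.59 and 3.39 times Red. Both genes reached the mean of 1 FPKM needed for the fit only through their Pale libraries. For Daplx7pEVm018658 the size rests largely on Black, where the Pale level was 12.3 times the Red level, against 1.94 in Doe, 2.39 in Long and 2.30 in Round. At such levels a few fragments decide the value of a library.

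None of the 7 isoforms of these low genes reached a mean of 1 FPKM. Daplx7pEVm018465t1 carried 67.6% of the fall in the mean of its gene, with 0.19, 0.81, 0.57 and 0.21 FPKM in Red, against 1.53, 2.36, 1.31 and 0.32 FPKM in Pale libraries of Black, Doe, Long and Round. Daplx7pEVm018658t3 carried 69.2% of that of its own gene, with 0.12, 0.47, 0.19 and 0.20 FPKM in Red, against 2.57, 0.93, 0.57 and 0.46 FPKM in Pale. Both leading isoforms were lower in Red in each lake. Daplx7pEVm018658t2 was listed at 0 in all 4 Red libraries and in the Pale libraries of Long and Round, and at 0.88 FPKM and 1.27 FPKM in the Pale libraries of Black and Doe. Daplx7pEVm018658t1, which the deposited table names Prostaglandin-H2 D-isomerase although its gene is named Apolipoprotein D, was higher in Red on average, at 0.272 FPKM in Red and 0.133 FPKM in Pale animals. Over the 5 genes, 24 of the 27 isoforms, tested or not, had a lower mean in Red and 8 were lower in Red in each lake. All 17 tested isoforms of the 5 genes had a lower mean in Red. Their genes were chosen for a lower level in Red, so this direction is no result. Over all tested isoforms, 60.7% had a difference below 0, with a median of -0.10, and 12.8% were lower in Red in each lake. In limma 1 isoform passed an adjusted p of 0.05 for Red against Pale (0.00424%), while 7.05% were lower and 2.47% higher at an unadjusted p under 0.05.

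Differences between lakes were not used to choose the genes and could be tested. An F test over the lake terms in the same limma model called 0 of 12865 genes at a Benjamini-Hochberg adjusted p of 0.05 (0%), with 1273 at an unadjusted p under 0.05 (9.9%). The adjusted p was 0.368 for Daplx7pEVm016442, 0.524 for Daplx7pEVm018465, 0.659 for Daplx7pEVm017095, 0.671 for Daplx7pEVm018658 and 0.914 for Daplx7pEVm016393. In simulated data of this size only Long was raised and the other lakes were level. There the F test found 46.2% of genes raised by a log2 difference of 2 and 0.8% of those raised by 1. A change of 1 in 1 lake could thus mostly not be called. These rates do not carry over directly to genes that differ in more than 1 lake. Set against the mean of the other 3 lakes, Black called 5 genes (0.0389%) and Doe, Long and Round 0, none of them among the 5 described here. Over isoforms the F test called 4 of 23583 (0.017%), with 10.8% at an unadjusted p under 0.05. The adjusted p of the 17 tested isoforms of the 5 genes ran from 0.345 for Daplx7pEVm016442t2 to 0.989 for Daplx7pEVm016393t6.

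As a description, Daplx7pEVm016442 and the low Apolipoprotein D genes ranked Doe and Round in opposite ways. Daplx7pEVm016442 was lowest in Doe, at -1.03 (SE 0.24) against the mean of the other lakes, and highest in Round, at 0.85 (SE 0.24). Daplx7pEVm018465 was highest in Doe, at 0.59 (SE 0.21), and lowest in Round, at -0.65 (SE 0.21), and Daplx7pEVm018658 gave 0.56 (SE 0.36) in Doe and -0.74 (SE 0.36) in Round. The limma adjusted p of these contrasts ran from 0.327 to 0.664. Daplx7pEVm017095 was lowest in Doe, at -0.31 (SE 0.15), and highest in Round, about as far on the other side, at 0.31 (SE 0.15). For Daplx7pEVm016393 the lake farthest from the others was Black, at -0.42 (SE 0.48). Neighbouring lakes in these orders therefore cannot be separated beyond the spread.

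Over the 8 libraries, on the log2(FPKM + 1) scale, the low genes Daplx7pEVm018465 and Daplx7pEVm018658 were the most alike of the 5, with a Pearson correlation of 0.91. Daplx7pEVm016393 and Daplx7pEVm017095 correlated at 0.70 and Daplx7pEVm016442 and Daplx7pEVm017095 at 0.67. Daplx7pEVm016442 had little relation to the low pair, at -0.09 with Daplx7pEVm018465 and -0.20 with Daplx7pEVm018658. The points share their libraries, depth and scaling, and the values include the Red and Pale difference itself.

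The genes most like each of the 5 over the same 8 libraries were also listed. For the isomerase gene Daplx7pEVm017095 they were the uncharacterized Daplx7pEVm058776 at a Pearson r of 0.996, Iron-responsive element-binding protein (Daplx7pEVm002191) at 0.978 and Argininosuccinate synthase (Daplx7pEVm009572) at 0.974. Daplx7pEVm058776 had 9.13, 8.12, 9.88 and 10.38 FPKM in the Red libraries of Black, Doe, Long and Round, against 15.44, 14, 15.07 and 15.94 FPKM in the Pale libraries. It thus repeated the separation of the phenotypes, with a smaller fold.

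For Daplx7pEVm016393 the most alike were an ATP-binding cassette sub-family G member (Daplx7pEVm022369) at 0.965, an Abc transporter (Daplx7pEVm000306) at 0.962 and Calcium-activated chloride channel regulator 4 (Daplx7pEVm000310) at 0.960. ABC transporters move lipids and other substrates across membranes. Daplx7pEVm022369 had 2.80, 4.49, 6.06 and 4.84 FPKM in Red, against 9.07, 8.48, 5.52 and 11.78 FPKM in Pale libraries of Black, Doe, Long and Round. It was higher in Red in Long only, like Daplx7pEVm016393.

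For Daplx7pEVm016442 they were Cadherin-87A (Daplx7pEVm000471) at 0.980, Cathepsin o (Daplx7pEVm009496) at 0.979 and the uncharacterized Daplx7pEVm061162 at 0.979. For Daplx7pEVm018465 they were the uncharacterized Daplx7pEVm014656 at 0.967, Contactin-associated protein (Daplx7pEVm007997) at 0.963 and the kinase pdik1l (Daplx7pEVm010742) at 0.956. For Daplx7pEVm018658 they were the uncharacterized Daplx7pEVm007667 at 0.970 and Daplx7pEVm002420 at 0.967, with Chorion peroxidase precursor (Daplx7pEVm002763) at 0.968. These are the highest of 12865 genes over 8 points and stand as a description.

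The tables hold 17 genes with a lipocalin name, of which 10 are named Apolipoprotein D, 6 Prostaglandin-H2 D-isomerase and 1 Neural lazarillo. Of the 17, 12 entered the fit, 5 of those only through their Pale libraries, so the direction of the 12 is partly set by the filter. Of the 12, 5 were also chosen for their lower level in Red, so the direction of the 12 as a whole is no result. The 7 tested genes that were not chosen in this way all had a log2 difference below 0, as 61.5% of all tested genes did. Their median was -0.59 where all genes had -0.08. At an unadjusted limma p under 0.05, 1 of the 7 was lower, where 9.29% of all tested genes were. Of these 7, 3 had passed the filter only through Pale. With Doe left out, Neural lazarillo (Daplx7pEVm019720) was above 0. The 17 genes together had 198, 236.4, 371.9 and 290.4 FPKM in the Red libraries of Black, Doe, Long and Round, against 471.9, 558.8, 367.7 and 606.5 FPKM in the Pale libraries. In Long the sum was nearly level between phenotypes. Daplx7pEVm016393 with Daplx7pEVm019087 held 41.7% to 72.4% of the sum over the libraries. In Long this pair alone had 255.5 FPKM in Red and 153.2 FPKM in Pale, so the sum there reflects the same 2 genes.

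**Figure D4:**
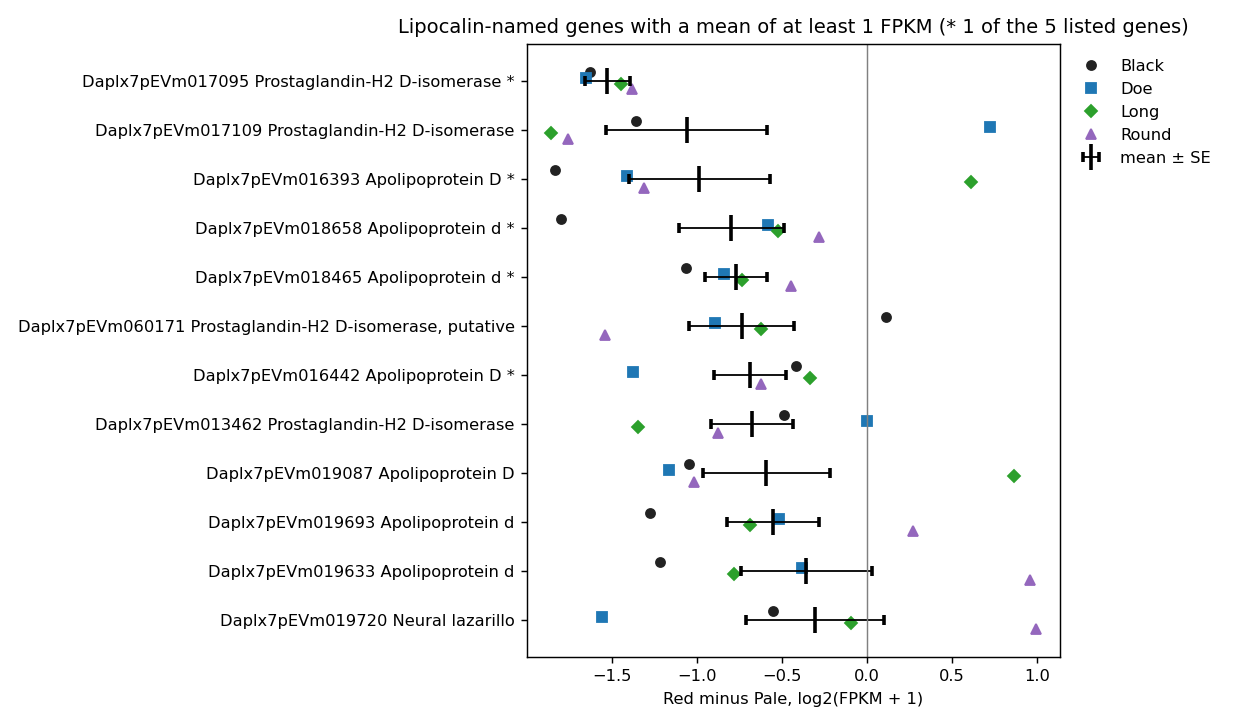
Red minus Pale difference on the log2(FPKM + 1) scale for the 12 lipocalin-named genes that entered the fit, with a marker for each lake and the mean with its standard error (limma). Of the 12, 5 were chosen for a lower level in Red and 5 passed the filter only through Pale, 2 of them in both groups. Long lies above 0 for Daplx7pEVm016393 and Daplx7pEVm019087.

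Genes named for the isomerase did not share the reversal in Long. The 6 together had 41.6, 44.2, 41.9 and 53.3 FPKM in the Red libraries of Black, Doe, Long and Round, against 93.5, 80.7, 116.3 and 125.8 FPKM in the Pale libraries. Every Red sum lay below every Pale sum. The sum includes Daplx7pEVm017095, which was chosen for its lower level in Red, so this separation is no result. Beside Daplx7pEVm017095, most of the sum came from Daplx7pEVm013462, with 20.90, 24.30, 18.49 and 25.30 FPKM in Red, against 29.65, 24.34, 48.63 and 47.24 FPKM in Pale. In Doe that gene was level between phenotypes, and its log2 difference was -0.68 (SE 0.24).

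The remaining tested genes were low and uneven between lakes. Daplx7pEVm017109 averaged 0.690 FPKM in Red and 2.28 FPKM in Pale, and Daplx7pEVm060171 averaged 0.628 FPKM in Red and 2.26 FPKM in Pale, both named for the isomerase. The Apolipoprotein D genes Daplx7pEVm019693 and Daplx7pEVm019633 averaged 1.65 FPKM and 0.938 FPKM in Red, against 3.14 FPKM and 1.91 FPKM in Pale. Neural lazarillo averaged 2.62 FPKM in Red and 3.68 FPKM in Pale. Its name comes from a fly protein of nerve cells, and it was higher in Red in Round alone.

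The last 5 genes fell short of a mean of 1 FPKM and were not fitted. Daplx7pEVm015947, named Apolipoprotein D, had 0.16, 0.33, 0.41 and 0 FPKM in Red, against 1.57, 3.07, 1.22 and 0.48 FPKM in Pale libraries of Black, Doe, Long and Round, with no overlap. The isomerase-named Daplx7pEVm017471 was the opposite, with 0.65, 0.23, 0.19 and 0.38 FPKM in Red, against 0 in the Pale libraries of Black, Doe and Round and 0.18 FPKM in that of Long. Of the 17 genes it alone was higher in Red in every lake, as 6.57% of tested genes were, at a level where few fragments decide. Daplx7pEVm018793, Daplx7pEVm018976 and Daplx7pEVm017434 stayed at or below 0.77 FPKM in every library.

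The enzymes around the isomerase were then read from a list of names in prostaglandin and eicosanoid metabolism. In animals, phospholipases A2 free arachidonic acid from membranes, prostaglandin G/H synthases (cyclooxygenases) turn it into prostaglandin H2, specific synthases make the active forms, and reductases inactivate them. Of 33 such genes beside the isomerase genes, 20 were tested: 15 lay below 0 and 5 above, where 61.5% of all tested genes lay below 0. Their median was -0.32 where all genes had -0.08. None passed the limma adjusted p of 0.05, while 5 of the 20 were lower and 0 higher at an unadjusted p under 0.05, where 9.29% of all tested genes were lower and 2.89% higher. The median was -0.20 without Long, -0.12 with no filter, -0.19 with a pseudocount of 5 and -0.21 with quantile normalization, where 14 of 20 lay below 0.

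Among phospholipases, Group XV phospholipase A2 (Daplx7pEVm009843) had 6.95 ± 2.88 FPKM in Red and 12.1 ± 1.84 FPKM in Pale animals (SD, n = 4 each), a log2 difference of -0.78 (SE 0.27). Group 3 secretory phospholipase A2 (Daplx7pEVm011664) averaged 1.49 FPKM in Red and 3.75 FPKM in Pale, and was higher in Red in Long. Calcium-independent phospholipase A2-gamma (Daplx7pEVm005334) averaged 7.89 FPKM in Red and 13.97 FPKM in Pale, and was higher in Red in Round. The tested cyclooxygenase gene, Daplx7pEVm004497, is named for the step just before that of the isomerase name, and neither activity is known from these data. Its levels were 1.5, 1.47, 1.09 and 1.80 FPKM in Red, against 0.67, 3.08, 1.42 and 0.50 FPKM in Pale libraries of Black, Doe, Long and Round. It was higher in Red in Black and Round and lower in Doe and Long, with a log2 difference of 0.14 (SE 0.31). The other 2 cyclooxygenase genes stayed under the filter, at 0.86 FPKM or less in every library.

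Of the other synthases, Prostaglandin E synthase (Daplx7pEVm010344) and Prostaglandin E synthase 3 (Daplx7pEVm017886) had log2 differences of 0.13 (SE 0.15) and 0.02 (SE 0.14). Prostamide/prostaglandin F synthase (Daplx7pEVm015057) averaged 44.7 ± 8.11 FPKM in Red and 55.3 ± 11.8 FPKM in Pale animals. Its log2 difference was -0.30 (SE 0.17). Among the reductases, Daplx7pEVm012889 had 16, 15.10, 38.30 and 14.58 FPKM in Red, against 21.55, 37.35, 107.60 and 19.40 FPKM in Pale libraries of Black, Doe, Long and Round. It was lower in Red in each lake, by -0.88 (SE 0.24), and highest in Long in both phenotypes. All 4 genes named Prostaglandin E2 receptor EP4 subtype lay under a mean of 1 FPKM.

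**Figure D5:**
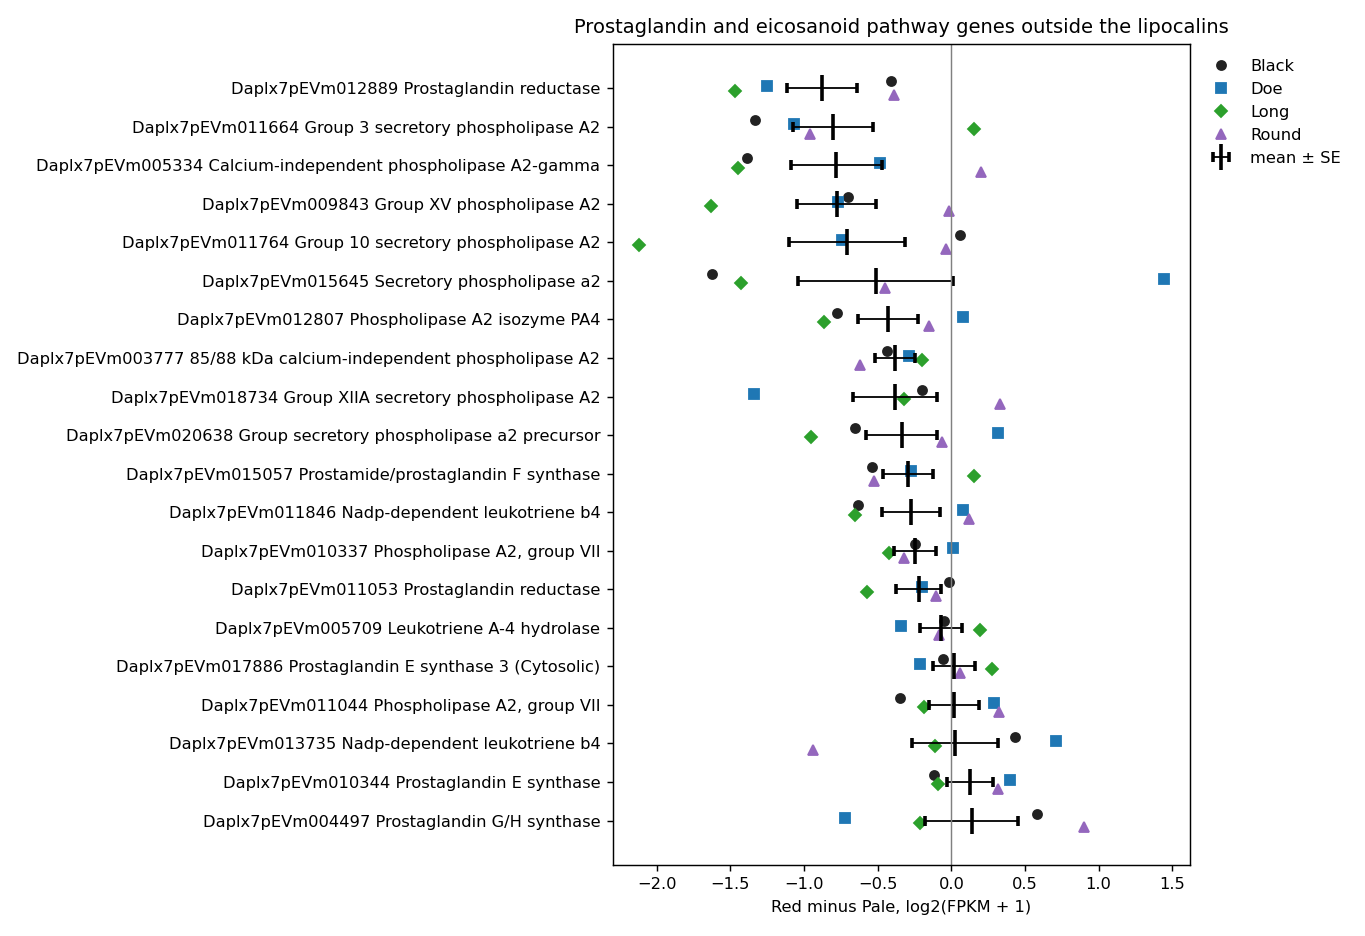
Red minus Pale difference on the log2(FPKM + 1) scale for the tested genes of prostaglandin and eicosanoid metabolism outside the lipocalins. Markers show each lake, with the mean and its standard error (limma). The reductase Daplx7pEVm012889 has the most negative mean, at -0.88, while the cyclooxygenase Daplx7pEVm004497 has lakes on both sides of 0. Daplx7pEVm017095 is not shown.

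Genes that handle the kinds of ligand lipocalins carry were mixed. For comparison, 61.5% of all tested genes lay below 0, with a median of -0.08. Of 24 intracellular lipid carriers, 23 were tested, with 15 below 0, 8 above and a median of -0.05, which turned to 0.04 to 0.09 under 3 other scalings. The retinoic acid-binding proteins Daplx7pEVm018187 and Daplx7pEVm023899, abundant carriers inside cells, averaged 117 FPKM and 228 FPKM in Red, against 178 FPKM and 318 FPKM in Pale, while an Acyl-CoA-binding protein (Daplx7pEVm019469) averaged 2.91 FPKM in Red and 1.23 FPKM in Pale. Of 38 lipoprotein and scavenger receptor genes, 24 were tested, 17 below 0 and 7 above, with a median of -0.24. The receptor-named Daplx7pEVm008956 averaged 1.31 FPKM in Red and 5.9975 FPKM in Pale. Of 20 carotenoid and retinoid genes, 14 were tested, 8 below 0 and 6 above, with a median of -0.06. No gene of these lists passed the limma adjusted p of 0.05.

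Markers of tissues whose share of the animal may differ were read beside these results. Over all tested genes 61.5% lay below 0, with a median of -0.08, and the counts below are to be set against that. The lists are name matches, and not every gene in them is particular to its tissue. Of 28 tested neuron and glia genes 21 lay below 0 (median -0.12), and their summed level ran from 148 to 181 FPKM in Red and from 178 to 193 FPKM in Pale libraries. Their name pattern also took in genes such as Syntaxin-16, Syntaxin-18 and Synaptobrevin YKT6, which are not markers of nerve cells. Of 19 tested muscle genes 17 lay below 0 (median -0.28), with sums of 844 to 1207 FPKM in Red and 1069 to 1676 FPKM in Pale. Of 58 tested gut genes 40 lay below 0 (median -0.27), with sums of 3793 to 6031 FPKM in Red and 3621 to 8336 FPKM in Pale. The gut pattern also took in genes named for inter-alpha-trypsin inhibitor heavy chains, which are not digestive enzymes. For the eye, the name pattern also took in other receptors of the rhodopsin family and arrestin-domain genes, and of its 41 tested genes 18 lay below 0 (median 0.04), with sums of 1745 to 2878 FPKM in Red and 1440 to 3539 FPKM in Pale. Of its opsin genes alone, singled out after the names were seen, 23 were tested and 9 lay below 0 (median 0.07), with sums of 1511 to 2623 FPKM in Red and 1255 to 3275 FPKM in Pale. Of 19 tested yolk and egg genes 13 lay below 0 (median -0.23), with sums of 1299 to 2691 FPKM in Red and 1712 to 2030 FPKM in Pale. Genes of these lists listed at 0 in every library numbered 2 for neuron and glia, 2 for muscle, 4 for gut, 10 for the eye pattern (1 of them an opsin) and 1 for yolk and egg. The part of these tissues in the lower lipocalin levels of Red animals was not tested.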

How the data were processed

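Transcript levels were measured in 8 libraries of whole adult Daphnia pulicaria. The tool named in the submitters' processing notes is Trimmomatic. Which aligner and quantifier were run, and on which build, is not given in the sources used here. The authors deposited FPKM values with 2 decimals, in a gene table and an isoform table; a gene and its isoforms summed agreed within 0.04 FPKM. The 4 columns of log2 ratios that the authors also deposited were not used. Of 33069 gene identifiers 0 matched the RefSeq gene table, so no coordinates or sequences are given.

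Values were taken as log2(FPKM + 1), and features averaging under 1 FPKM were left out. Two-sided tests came from limma 3.58.1 (R 4.3.3) with a mean-variance trend; the model held lake as blocking factor plus phenotype. P-values were adjusted over all features by Benjamini-Hochberg, with a threshold of 0.05. Lakes were tested by an F test and each against the other 3 averaged. Lists were 11 name patterns (the eye pattern was also read for opsins alone), described by counts and medians. The 5 genes, the lists and the tests were chosen with earlier results of these data known. The text names those 5, their isoforms and the other lipocalin-named genes. It also names, for each of the 5, the 3 genes of highest Pearson correlation, and from the lists up to 4 genes each of smallest unadjusted p, or up to 10 for prostaglandins. Cyclooxygenase, synthase and receptor genes outside that rule were named after their values were seen.

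Lake pairs a Red with a Pale library by design. Departures of the paired libraries from their phenotype means had a Pearson correlation over genes of 0.485 (Black), -0.01 (Doe), -0.02 (Long) and 0.214 (Round). In 5 simulated sets of 12865 genes, the Red against Pale test recovered 31% of changes of 1 and 84.8% of changes of 2 on the log2 scale, and made 5.8 false calls per set. Read numbers are unknown, so no counting interval is given. Alternatives were other pseudocounts, filters and scalings, leaving out each lake, and no replicate block.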

Additional observations from a re-analysis of the deposited data

Results flagged for a closer look

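For Daplx7pEVm016393 Red was above Pale in Long and below it in the other lakes. In a contrast built after this was seen, the log2 difference in Long minus that in the other 3 lakes was 2.13 (SE 0.35), with 129.99 FPKM in Red and 84.65 FPKM in Pale animals of Long. The same quantity was 1.94 (SE 0.29) for Daplx7pEVm019087, with 125.48 FPKM in Red and 68.58 FPKM in Pale animals of Long. With limma and Benjamini-Hochberg adjustment over all 12865 genes neither passed (adjusted p = 0.547 for both), and over the other pseudocounts, filters and scalings the adjusted p ran from 0.138 to 0.649. Long has 1 library of each phenotype, so the value in that lake has no repeat and a difference between lakes is not shown.

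In 3 of 58 groups of 4 libraries, 1 library stood far from the other 3, where chance gives about 1 in 20. Daplx7pEVm017109 had 2.24 FPKM in the Red library of Doe, against 0.02 to 0.27 FPKM in the other Red libraries. Daplx7pEVm060171 had 6.80 FPKM in the Pale library of Round, against 0.50 to 0.86 FPKM in the other Pale libraries. Daplx7pEVm016393t9 had 3.18 FPKM in the Red library of Doe, against 1.42 to 1.46 FPKM in the other Red libraries.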

How the results depend on the processing

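All 5 genes kept a lower mean in Red in every alternative in which they entered the fit; the low genes Daplx7pEVm018465 and Daplx7pEVm018658 did not reach a mean of 5 FPKM, and Daplx7pEVm018658 did not enter without Black or without Doe. Their lake F test never passed, with adjusted p (limma) from 0.334 to 0.943. The values of the low genes depended on the pseudocount, and the depth behind them is unknown. With a pseudocount of 0.1 the log2 difference was -1.27 for Daplx7pEVm018465 and -1.53 for Daplx7pEVm018658, and the median of the non-Apolipoprotein D lipocalins -1.57. With a pseudocount of 5 it was -1.37 for Daplx7pEVm017095, -0.30 for Daplx7pEVm018465 and -0.28 for Daplx7pEVm018658, and the Apolipoprotein D median was -0.30. Quantile normalization gave -1.32 for Daplx7pEVm017095. Leaving out a lake moved Daplx7pEVm016393 between -1.52 and -0.70, Daplx7pEVm016442 between -0.80 and -0.46, and Daplx7pEVm017095 between -1.58 and -1.49. Without the replicate block no gene was called and 999 were lower at an unadjusted p under 0.05, and no other call changed.

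Over all genes, the median difference of -0.08 became 0.022 with quantile normalization and 0.0018 without the most abundant gene, a shift of about 0.1 to set beside each difference. Genes higher in Red at an unadjusted p under 0.05, 372 in the report, numbered 605 with no filter, 191 at 5 FPKM or more, 648 with size factors, 800 with quantile normalization, 637 without the most abundant gene and 246 to 342 with a lake left out. Those lower, 1195, numbered 735 at 5 FPKM or more, 676 with quantile normalization, 722 without the most abundant gene and 745 to 1241 with a lake left out. The lipid carrier median turned to 0.042 with size factors, 0.093 with quantile normalization and 0.056 without the most abundant gene. The lake F test had 2199 genes at an unadjusted p under 0.05 with no filter and 606 at 5 FPKM or more, and called 1 with a pseudocount of 5. Black against the other lakes, with 5 calls, had 3 and 13 with pseudocounts of 0.1 and 5, 0 with either other filter, and 0 to 19 with a lake left out. Of isoforms, 1005 were lower with quantile normalization, and the lake F test called 2 with that or with a pseudocount of 0.1, against 4. The cause of these shifts was not tested.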
